A study of Homo sapiens with 4 samples.

Results

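The 39 protein-coding HOX genes of the HOXA, HOXB, HOXC and HOXD clusters were examined for open chromatin in MCF10A cells without and with active TAZ. They were chosen by symbol (HOXA, HOXB, HOXC or HOXD followed by a number) from the 19970 protein-coding genes of GENCODE release 44. The rule itself uses no measured values, but earlier results of these data were known when the genes were chosen. Each cluster was taken with 20 kb on each side, which gave windows of 147.1 kb on chromosome 7 (HOXA, 11 genes), 240.2 kb on chromosome 17 (HOXB, 10 genes), 157.2 kb on chromosome 12 (HOXC, 9 genes) and 138.2 kb on chromosome 2 (HOXD, 9 genes). These windows held 42 of the 149858 accessible regions of the series.

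MCF10A cells are an immortal, non-tumorigenic line from human breast epithelium. TAZ-4SA, placed under a tet-inducible system, is an active mutant of the Hippo pathway coactivator TAZ. All cells carried this construct. No Dox cells received no doxycycline, and Dox cells received 0.05 µg/mL for 72 h, with 50000 cells per reaction and 2 replicates per condition. The labels do not say which promoter drives the construct or whether the line is 1 clone. No sample of cells without the construct was analysed here, so doxycycline and TAZ-4SA cannot be told apart.

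In ATAC-seq a transposase cuts open DNA, and a peak is a stretch with more cuts than the background. The authors pooled the 2 replicates of a condition before calling peaks, so each condition had 1 list. For this reason neither a replicate error nor a p-value exists here, and the 95% intervals of shares (exact Clopper-Pearson) reflect counting error alone. The Dox list had 84353 peaks (median fold enrichment 4.07, median width 482 bp) and the No Dox list 117740 peaks (median fold 3.81, median width 491 bp). Sample depth is unknown, as read counts are not part of the lists. Fold is the signal at the summit of a peak over the background of its own list, and folds were therefore ranked only within a list. Of 9 basal epithelial marker genes, 7 had a promoter peak in both lists, TP63 with Dox alone and KRT14 in neither. Over all coding genes, 65.3% had a promoter peak in both lists. Of 10 markers of blood, endothelium and fibroblasts none had one in both lists, CD79A had one with Dox alone, and PTPRC and DCN had one with No Dox alone.

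HOX genes encode homeodomain transcription factors that set positional identity along the body axis. Genes of the same number in different clusters are paralogs, and within a cluster the low numbers lie at the 3' end and the high numbers at the 5' end. The clusters are rich in CpG islands, and their chromatin is held by the opposing Polycomb (repressive) and trithorax (activating) complexes. TALE proteins such as PBX and MEIS bind DNA together with HOX proteins, and adult epithelia keep patterns of HOX expression that differ between tissues.

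Accessible regions were made by merging overlapping or touching peaks of both lists and were numbered within each cluster from the lowest coordinate. A region was Dox-only or No-Dox-only where it held peaks of 1 list, and shared where it held both. Such a class records what passed the peak caller's threshold, and a region with no peak may still have had some signal. As examples of the DNA involved, the summit and 100 bases on each side of it are given for 3 regions (hg38, plus strand, CpG in capitals). These are the Dox-only region of the highest fold in HOXA (chr7:27160804-27161004), the shared region of the highest fold in HOXD (chr2:176097622-176097822) and a strong No-Dox-only region in an intron of HOXA3 (chr7:27134552-27134752).
HOXA region 15, Dox-only: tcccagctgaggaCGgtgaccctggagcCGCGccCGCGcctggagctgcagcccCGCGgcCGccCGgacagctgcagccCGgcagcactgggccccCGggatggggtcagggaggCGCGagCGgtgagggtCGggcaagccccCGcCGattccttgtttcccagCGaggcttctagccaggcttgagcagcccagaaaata
HOXD region 4, shared: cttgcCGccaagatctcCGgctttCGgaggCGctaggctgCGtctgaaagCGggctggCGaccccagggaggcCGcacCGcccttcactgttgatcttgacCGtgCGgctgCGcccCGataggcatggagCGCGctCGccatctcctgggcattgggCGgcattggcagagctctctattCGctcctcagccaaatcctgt
HOXA region 10, No-Dox-only: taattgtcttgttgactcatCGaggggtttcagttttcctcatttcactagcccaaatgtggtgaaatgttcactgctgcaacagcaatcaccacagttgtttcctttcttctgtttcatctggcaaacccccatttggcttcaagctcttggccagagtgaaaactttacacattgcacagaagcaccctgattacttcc
The Dox-only window of HOXA region 15 held 18 CpG, and the shared window of HOXD region 4 also held 18. The No-Dox-only window of HOXA region 10 held 1 CpG and had a GC content of 43.8%. It is not typical of its class: the window of HOXA region 11, the No-Dox-only region of the highest fold, held 9 CpG at a GC content of 48.8%.

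Most HOX promoters had no peak in either list, and where only 1 condition had a peak it was mostly Dox (8 genes against 1). A gene was said to have a promoter peak where any part of a peak lay within 1 kb of any of its transcription start sites (TSSs). Of the 39 genes, 9 had a peak in both lists (23.1%, 95% interval 11.1 to 39.3%), 8 with Dox alone (20.5%, 9.30 to 36.5%), 1 with No Dox alone (2.56%) and 21 in neither (53.8%, 37.2 to 69.9%). Over all coding genes, 65.3% had a peak in both lists, 5.85% with Dox alone, 3.92% with No Dox alone and 24.9% in neither. Dox was thus the commoner single condition there too, with 1168 genes against 783, and whether the HOX genes lean further was not tested. The Dox-alone share of the HOX genes lay above that of all coding genes and its interval did not reach it. A gene with a peak in both lists cannot be Dox-alone, however. Such genes were 23.1% of the HOX genes and 65.3% of all coding genes. The higher share therefore does not by itself show that HOX promoters lean towards Dox. Neighbouring HOX genes share chromatin and are not independent draws, which these intervals do not take in.

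**Figure D1:**
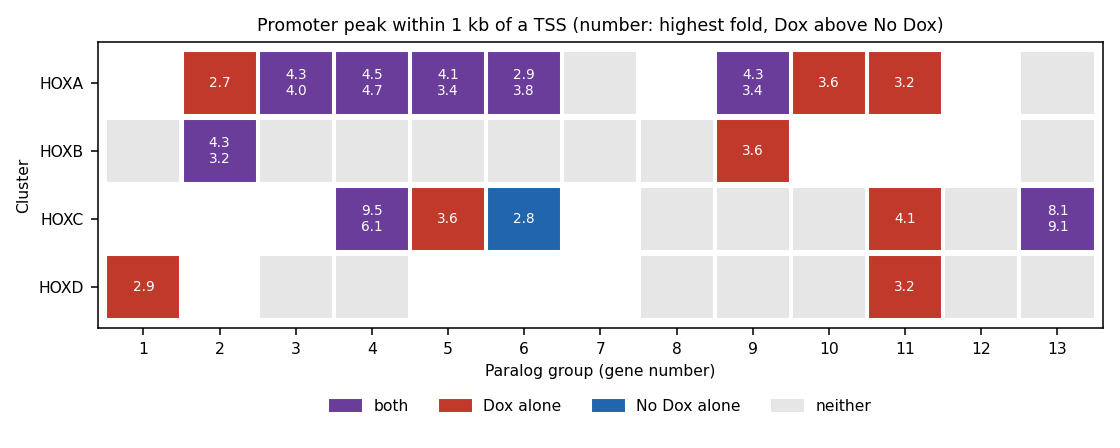
Promoter state of the HOX genes (1 not drawn) by paralog group (horizontal axis) and cluster (vertical axis), with the highest fold of the promoter peaks written in each tile, Dox above No Dox. Dox-alone genes (8) occur in every cluster, and the only No-Dox-alone gene is HOXC6.

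The clusters differed in how many of their promoters were open. In HOXA, 6 of 11 genes had a peak in both lists, 3 with Dox alone and 2 in neither. In HOXB, 1 of 10 had a peak in both lists, 1 with Dox alone and 8 in neither. In HOXC the counts were 2 in both, 2 with Dox alone, 1 with No Dox alone and 4 in neither of 9 genes. In HOXD no gene of 9 had a peak in both lists, 2 had one with Dox alone and 7 in neither. HOXA was therefore the cluster with most open promoters in either condition, and HOXD had promoter peaks only in the Dox list.

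Of the Dox-alone genes, 3 lay in HOXA. HOXA2, a gene of hindbrain and branchial arch identity, had a Dox peak of fold 2.71 at 266 bp from its nearest TSS, which is the lowest fold of the Dox list. HOXA10 and HOXA11, genes of the reproductive tract, had Dox peaks of fold 3.62 (250 bp from a TSS) and 3.16 (342 bp). All 3 were below the Dox list median of 4.07. In HOXB the Dox-alone gene was HOXB9, a gene with a part in thoracic and mammary development, with a peak of fold 3.62 at 240 bp from its TSS.

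In HOXC, a Dox peak of fold 3.62 covered the TSS of HOXC5, and one of fold 4.07 lay 477 bp from that of HOXC11. HOXC11 was the only Dox-alone gene whose peak reached the list median. In HOXD, HOXD1 had a Dox peak of fold 2.94 at 206 bp from its TSS and HOXD11 one of fold 3.16 at 745 bp. The highest promoter peaks of these 8 genes were 8 separate peaks.

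HOXC6 was the gene with a No Dox peak alone. The peak (chr12:54016837-54017132, fold 2.75) lay 940 bp from an upstream TSS of HOXC6 and 11308 bp from the TSS of its canonical transcript, and it also covered a TSS of HOXC4. It lay just upstream of the large shared region that gave HOXC4 its folds. No peak lay within 1 kb of the canonical TSS of HOXC6 in either list.

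Paralogs of group 11 had the same state in every cluster that holds one: HOXA11, HOXC11 and HOXD11, genes of limb and kidney patterning, all had a promoter peak with Dox alone. All paralogs of groups 7, 8 and 12 (2, 3 and 2 genes) were without a promoter peak in either list. In groups 1 to 4, 5 of 12 genes had a peak in both lists and 2 with Dox alone. In groups 5 to 9, the counts were 3 in both, 2 with Dox alone and 1 with No Dox alone of 15 genes. In groups 10 to 13, 1 of 12 genes had a peak in both lists and 4 with Dox alone. Group 11 was singled out after its values were seen.

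The HOX promoters that were open had low folds. In the Dox list, 17 HOX genes had a promoter peak with a median highest fold of 4.07 (range 2.71 to 9.49), where the 14205 coding genes with a Dox promoter peak had a median of 7.69. Only 3 HOX genes reached that median. In the No Dox list, 10 HOX genes had a median of 3.92 (2.75 to 9.11) beside 8.47 over 13820 coding genes, and 1 reached it. The HOX medians stood at percentile 13.2 of coding promoters with a Dox peak and percentile 11.5 of those with a No Dox peak.

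**Figure D2:**
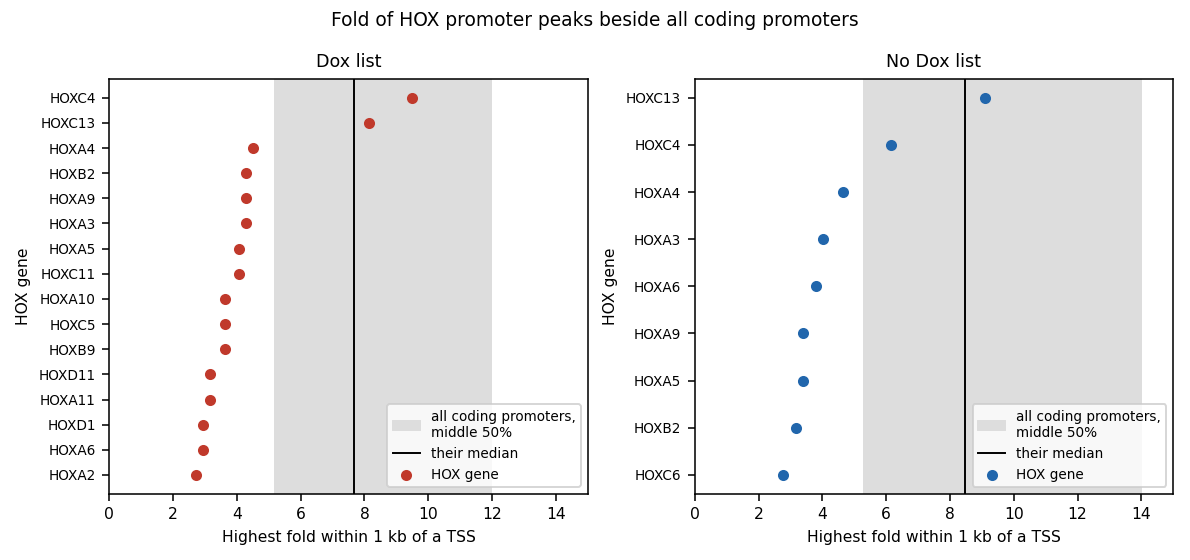
Highest fold within 1 kb of a TSS for the HOX genes with a promoter peak (points, 1 gene not drawn), with the middle 50% (grey) and median (line) of all coding promoters with a peak in the same list. In the Dox list HOXC4 and HOXC13 lie right of the median of 7.69, and in the No Dox list only HOXC13 lies right of 8.47.

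HOXC4 and HOXC13 carried promoter peaks well above the HOX medians. HOXC4 had fold 9.49 in Dox and 6.14 in No Dox, in peaks near an upstream start, far from its canonical TSS. HOXC13, a gene of hair and nail development, had fold 8.14 in Dox and 9.11 in No Dox, in peaks that covered its TSS and were 1589 and 1652 bp wide. The rank of these peaks within the Dox list was percentile 89.1 for HOXC4 and 85.2 for HOXC13, and within the No Dox list 81.1 and 90.4.

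HOXA4 had fold 4.52 in Dox and 4.66 in No Dox over its TSS. HOXA5, a gene that has been tied to lung and mammary epithelium, had 4.07 and 3.39. In HOXB the highest promoter peaks were those of HOXB2 in Dox (4.29) and No Dox (3.18) and that of HOXB9 in Dox (3.62). HOXA3 (4.29 and 4.02), HOXA6 (2.94 and 3.81) and HOXA9 (4.29 and 3.39) also had a peak in both lists. HOXA4 in No Dox ranked highest of these within its list, at percentile 69.9.

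How many HOX genes counted as open in both lists turned on the choice of start sites. With the canonical transcript alone, 4 genes had a peak in both lists, among them HOXA4, HOXA5 and HOXC13, and the same 8 genes had one with Dox alone. The peaks of HOXA3 lay 38430 bp (Dox) from its canonical TSS, those of HOXC4 34447 bp, and those of HOXA9 3807 bp, each at another annotated start. The upstream start of HOXC4 lies close to that of HOXC6, so a peak there cannot be assigned to 1 gene.

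Along the clusters, the windows held 34 Dox peaks and 22 No Dox peaks, although the Dox list was the shorter. This was 4.98 Dox peaks and 3.22 No Dox peaks per 100 kb, beside 2.78 and 3.88 over the genome. Dox peaks covered 2.78% of the windows (genome 1.80%) and No Dox peaks 2.03% (genome 2.59%). HOXA held 13 Dox and 12 No Dox peaks, HOXB 6 and 1, HOXC 9 and 3, and HOXD 6 and 6. The difference between the lists was largest in HOXB and HOXC. The median fold in the windows was 3.62 in Dox, below the list median of 4.07, and 3.81 in No Dox, equal to it.

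**Figure D3:**
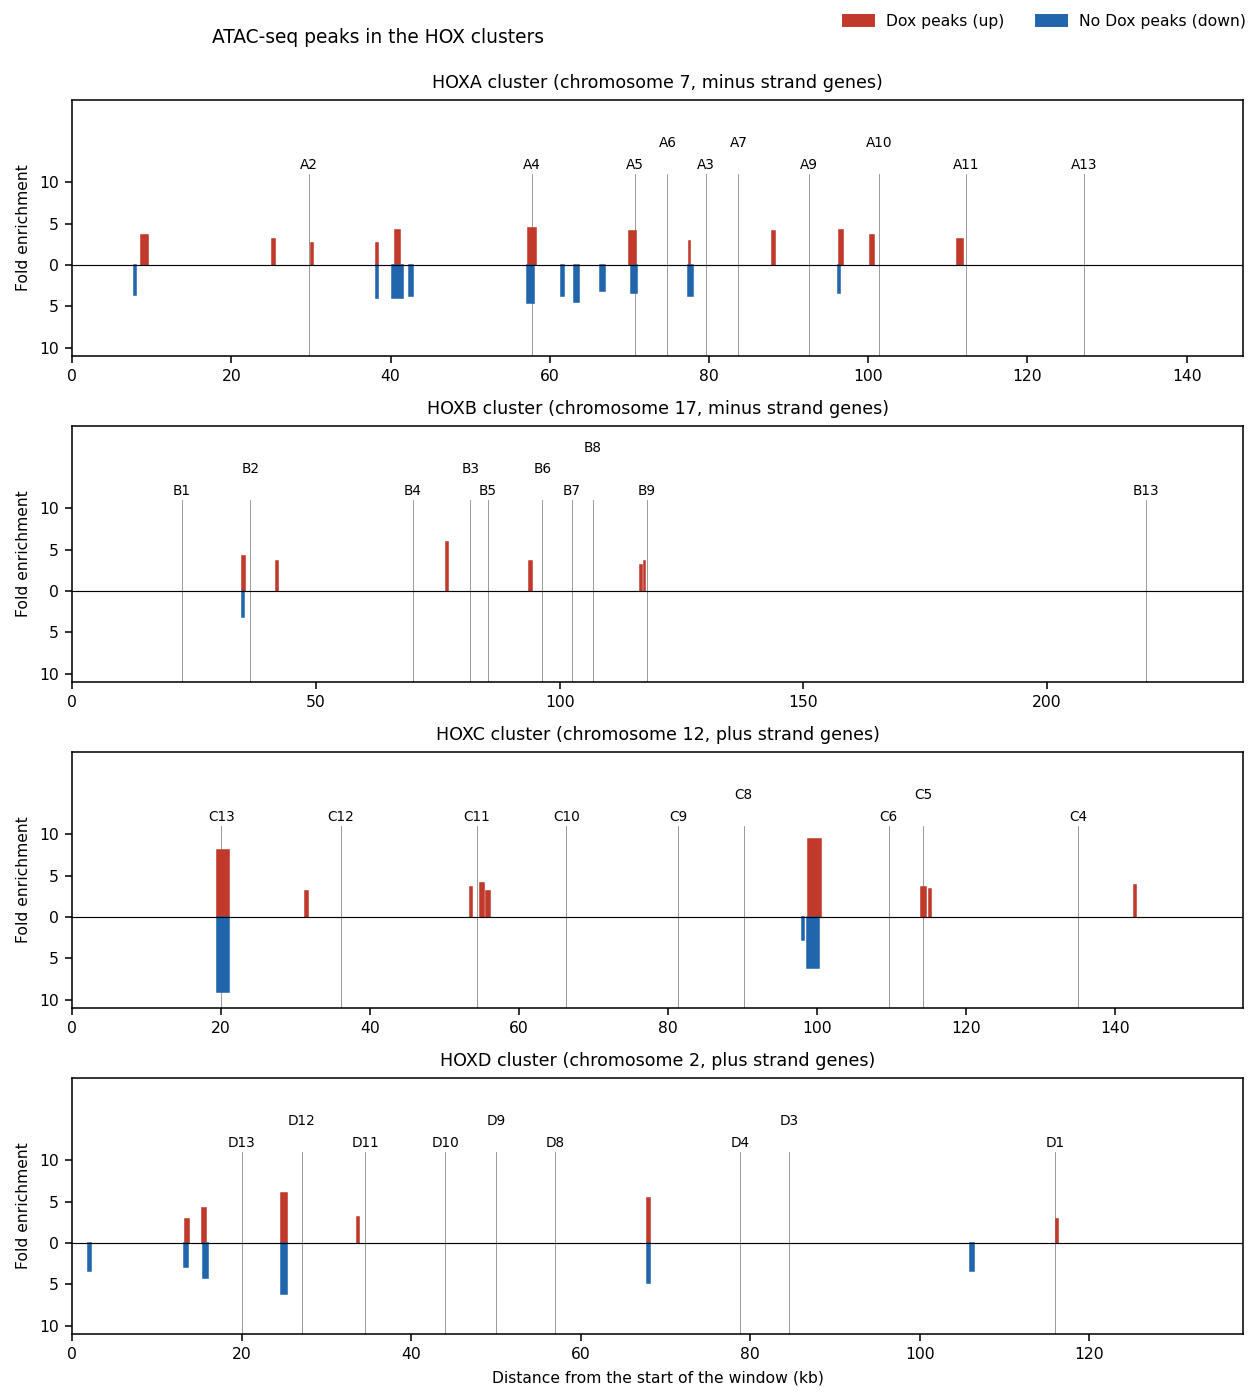
Peaks in the 4 HOX windows by distance from the start of the window (kb), with the fold of Dox peaks drawn upwards and of No Dox peaks downwards and the canonical TSSs of the HOX genes as thin lines (1 gene and its peaks are not drawn). HOXB shows 6 Dox peaks and 1 No Dox peak, and long stretches in each cluster, such as that from HOXC10 to HOXC8, hold none.

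Merged, these peaks gave 20 regions of Dox alone, 8 of No Dox alone and 14 shared ones. Over the genome 22.3% of regions were Dox-only and 45.3% No-Dox-only. Of the condition-only regions, 71.4% were Dox-only in the HOX windows (95% interval 51.3 to 86.8%) and 33.0% over the genome (33440 against 67861). In HOXA, 6 regions were Dox-only, 5 No-Dox-only and 7 shared. HOXB had 5 Dox-only regions, none of No Dox alone and 1 shared, and HOXC had 7, 1 and 2 in the same order. HOXD had 2, 2 and 4. Left out in turn, the clusters gave Dox-only shares from 65% (without HOXC) to 82.4% (without HOXA). When the No Dox list was trimmed by q-value until both lists were equally long, the share was 75% in the HOX windows (21 against 7) and 49.1% over the genome.

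Base composition moved with this share. Dox-only regions of the HOX windows had a median GC content of 64.1% and a median ratio of observed to expected CpG of 0.704. The medians were 48.8% and 0.457 where No Dox alone had a peak, and 64.6% and 0.722 in shared ones. A ratio of 0.6 or more, a usual mark of CpG islands, was found in 13 of 20 regions open with Dox alone, in 2 of 8 open with No Dox alone and in 10 of 14 shared ones, which is 59.5% of the 42 beside 9.48% of all regions. Among regions with a GC content of 55% and above, 15 were Dox-only and 2 No-Dox-only in the HOX windows (88.2%, 63.6 to 98.5%), and 58.7% of condition-only regions were Dox-only over the genome. The interval did not reach the genome share. Below 55% the HOX counts were 5 and 6 (45.5%, 16.7 to 76.6%), and the genome share was 26.4%. With the genome's share in each of 6 GC classes, 14.7 of the 28 condition-only HOX regions (52.4%) would be Dox-only, where 20 were counted. This 52.4% lay inside the interval of the HOX share (51.3 to 86.8%). In the GC classes of 60 to 65% and above 65%, which held most of the GC-rich regions, the HOX intervals (35.9 to 99.6% and 55.5 to 99.7%) also took in the genome shares of 64.0% and 71.2%.

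**Figure D4:**
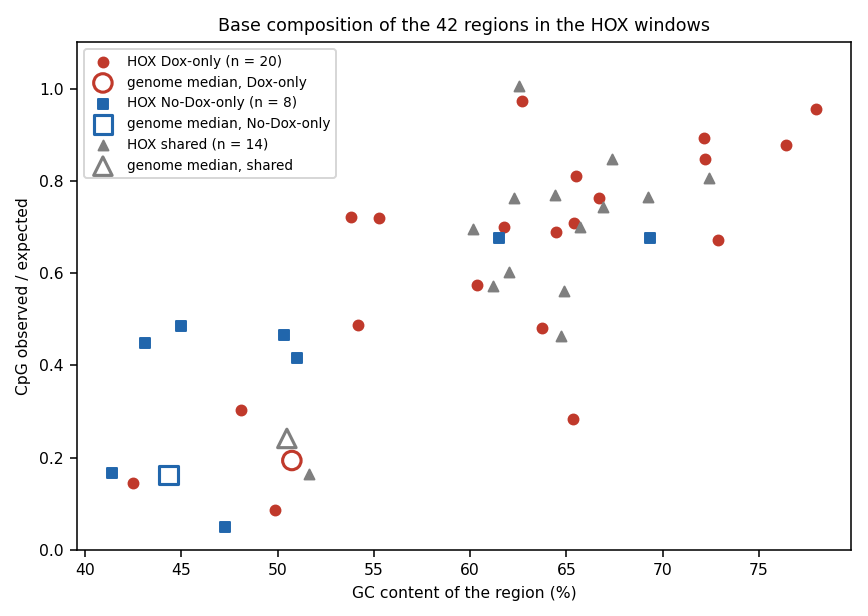
GC content (%) and ratio of observed to expected CpG of the 42 regions in the HOX windows by class (filled), with the genome medians of each class (open). Most Dox-only (median GC 64.1%) and shared (64.6%) regions lie at the upper right, and 6 of the 8 No-Dox-only regions lie under a GC content of 55%.

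Position moved with it too. Within 1 kb of a coding TSS, 11 HOX regions were Dox-only and 2 No-Dox-only (84.6%, 54.6 to 98.1%), beside 59.3% over the genome. Farther away the counts were 9 and 6 (60%, 32.3 to 83.7%), beside 31.1%. The HOX share was the higher in both places, but near a TSS its interval took in the genome share.

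Most of the condition-only regions were weak, as they were over the genome. The fold of 22 of the 28 was below the median of their own list. Over the genome 29885 of 101301 condition-only regions reached that median. Strong regions, with a peak at or above that median, numbered 3 Dox-only and 3 No-Dox-only in the windows (50%, 11.8 to 88.2%). Over the genome 6.59% of regions were strong and Dox-only and 13.4% strong and No-Dox-only, a Dox-only share of 33.1%. The genome share lay within the HOX interval, so a surplus of Dox-only regions was not detectable among the strong regions at this number.

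**Figure D5:**
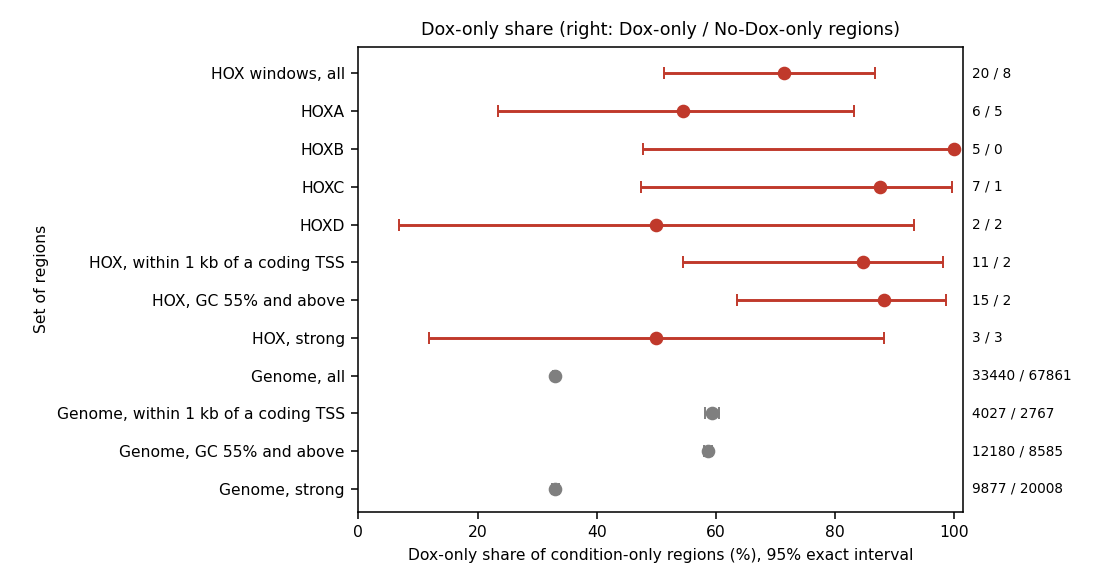
Dox-only share (%) of condition-only regions with exact 95% intervals for the HOX windows and clusters (red) and the genome (grey), with the counts of both kinds of region at the right. The share is 71.4% in the HOX windows and 33.0% over the genome, and among strong HOX regions (50%) the interval reaches from 11.8 to 88.2%.

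Of the strong Dox-only regions, HOXB region 3 had the highest fold, 5.88, with a −log10 q-value of 11.5. It lies in an intron shared by long transcripts of HOXB3 and the antisense RNA HOXB-AS3. HOXA region 15 (chr7:27160883-27161231, fold 4.07) is intergenic, 2947 bp from HOXA7. HOXC region 4 (chr12:53973605-53974134, fold 4.07) has its summit in a coding exon of HOXC11. In HOXD the highest Dox-only region was HOXD region 5 at HOXD11 (fold 3.16).

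The strong No-Dox-only regions all lay in HOXA, around long HOXA3 transcripts. HOXA region 11 (chr7:27136015-27136670) had fold 4.45 and HOXA region 10 (chr7:27134457-27134741) fold 3.81, both in HOXA3 introns. HOXA region 8 (chr7:27115304-27115820, fold 3.81) has its summit in an exon of the antisense RNA HOXA-AS2. In HOXC the single No-Dox-only region was that at HOXC6 (fold 2.75). In HOXD, regions 1 and 7 (fold 3.39 each) were the highest, the former intergenic and the latter in an exon of HAGLROS. HOXB had no No-Dox-only region.

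The 14 shared regions moved in rank in both directions, with an SD of 21.8 points (20.5 over the genome). The median difference in percentile of fold, Dox minus No Dox, was −5.19 points (5 higher in Dox, 9 lower), beside −4.98 over all 48557 shared regions, of which 30.0% were higher. By the percentile of width in place of fold, the median was 2.03 points in the HOX windows and −2.44 over all shared regions. The region at HOXB2, a hindbrain gene, ranked higher in Dox by 23.1 points, and HOXC region 7 at the upstream start of HOXC4 by 8.06 points. At the other end stood HOXA region 6, in an intron of HOXA3, with fold 2.71 in Dox and 4.02 in No Dox (−58.1 points). That Dox fold is the lowest of its list. Folds rose in whole steps of 0.226 in Dox and 0.212 in No Dox. Peaks of equal fold share a percentile, so percentiles move in jumps. HOXA region 14, at HOXA6, had fold 2.94 in Dox and 3.81 in No Dox (−46.3 points). In HOXD none of 4 shared regions ranked higher in Dox.

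The shared regions of HOXD lay away from promoters. HOXD region 4 (chr2:176097352-176098129), between HOXD13 and HOXD12 and 1666 bp from the TSS of HOXD12, had fold 6.10 in Dox and 6.14 in No Dox. HOXD region 6, in an intron of HOXD3, had 5.43 and 4.87. HOXD region 3, beyond HOXD13 at the 5' end, had 4.29 and 4.24. None of these regions came within 1 kb of any coding TSS, although the folds of regions 4 and 6 exceeded those of most HOX promoters.

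Long stretches of the clusters held no peak of either list. In HOXB, 122.6 kb from the HOXB9 TSS to beyond HOXB13, a gene of prostate identity, were without a peak, as were 34.8 kb around HOXB1. In HOXC, 41.9 kb with the canonical TSSs of HOXC8, HOXC9 and HOXC10 held none. In HOXD, 37.7 kb with HOXD3 and HOXD4 and 34.0 kb with HOXD8 to HOXD11 held none, and in HOXA 35.2 kb with HOXA11 and HOXA13. In HOXD, region 6 lay between the 2 stretches.

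Of the 31 lncRNA genes with a TSS in the windows, 9 had a promoter peak in both lists, 3 with Dox alone, 1 with No Dox alone and 18 in neither. Among all 18756 lncRNA genes, 26.3% had one in both lists, 4.72% with Dox alone, 6.16% with No Dox alone and 62.8% in neither. The counts of 3 and 1 in the windows are small. HOTAIR, a HOXC transcript studied for its link to Polycomb, had Dox peaks alone, the highest of which (fold 4.07) is the peak at HOXC11. Nearer to a HOTAIR TSS lay the Dox-only HOXC region 5 (fold 3.16), at 15 bp. The Dox-only HOXC region 3 (fold 3.62) lay 495 bp from one. HOXA11-AS (3.16) and HOXB-AS3 (3.62) had Dox peaks alone, the former shared with HOXA11. HAGLROS in HOXD had a No Dox peak alone (3.39). HAGLR had separate peaks in Dox (2.94) and No Dox (3.39), and HOTTIP at the 5' end of HOXA had none.

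The clusters also hold 8 microRNA genes, which were looked at after the regions were seen. Peaks met 3 of the hairpins. The share of microRNA genes met by a peak was not computed over the genome, so this count has no comparison. Mature forms are printed for these and because miR-196 copies lie in HOXA, HOXB and HOXC (RefSeq, GRCh38.p14, 5' to 3', seed bases 2 to 8 in capitals).
hsa-miR-196b-5p, HOXA: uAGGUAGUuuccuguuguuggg
hsa-miR-196a-5p, HOXB and HOXC: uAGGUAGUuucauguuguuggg
hsa-miR-615-3p, HOXC: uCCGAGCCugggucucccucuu
hsa-miR-7704, HOXD: cGGGGUCGgcggcgacgug
The miR-196 forms share the seed AGGUAGU and are known to pair with HOX mRNAs. The MIR196B hairpin (chr7:27169480-27169563, minus strand) lay under a Dox peak of fold 4.29, and the nearest No Dox peak, of fold 3.39, ended 11 bp away. The MIR615 hairpin (chr12:54033950-54034045, plus strand) lay under a Dox-only peak of fold 3.39, with the nearest No Dox peak 14.9 kb away. The Dox peak of HOXD1 (chr2:176188874-176189109, fold 2.94) met only the end of the MIR7704 hairpin (chr2:176188843-176188901). The other miR-196 genes lay 6.37 kb (MIR196A1) and 16.8 kb (MIR196A2) from the nearest Dox peak.

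Motifs were sought on either strand, up to 100 bp from the summit. TEAD factors, through which TAZ binds DNA, were sought as ACATTCC or GCATTCC. A match was found in 5 of 42 HOX regions (11.9%, 3.98 to 25.6%), beside 8.81% of all regions and 5.29% of those with a GC content of 55% and above. Among regions of Dox alone 2 of 20 had one (genome 13.6%), among those of No Dox alone 2 of 8 (5.72%), and among shared ones 1 of 14 (9.83%). The reversed TEAD letters CCTTACA or CCTTACG, a control, were found in 0 of 42, which allows a share of up to 8.41% (exact bound), beside 2.19%. The interval of the TEAD share of the HOX regions took in the share of all regions.

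AP-1 (TGACTCA or TGAGTCA) matched 1 HOX region (2.38%, 0.0603 to 12.6%, beside 13.1% of all regions and 5.97% of those with a GC content of 55% and above), and the PBX-HOX composite TGATTNAT matched 1 (2.38%, beside 3.74%). The CTCF consensus matched 0 of 42, beside 1.01%. The sites are printed with 11 bases on each side and the motif in capitals, as the matches this near to a summit (hg38, 5' to 3' on the strand named).
TEAD, HOXA region 2, Dox-only, chr7:27082416-27082444, minus: agatttcactgACATTCCattctgataaa
TEAD, HOXC region 10, Dox-only, chr12:54061559-54061587, minus: tggaggcagtcACATTCCaggaaggtttg
TEAD, HOXA region 6, shared, chr7:27111157-27111185, minus: ttcccttcccaACATTCCcagagtggagg
TEAD, HOXA region 1, No-Dox-only, chr7:27081027-27081055, minus: ttcaacatgtcACATTCCttcaagctgag
TEAD, HOXC region 6, No-Dox-only, chr12:54017127-54017155, minus: ctcctgctcctGCATTCCtcctgcccctt
AP-1, HOXA region 10, No-Dox-only, chr7:27134553-27134581, plus: aattgtcttgtTGACTCAtcgaggggttt
PBX-HOX, HOXC region 6, No-Dox-only, chr12:54016969-54016998, plus: ttaaattaatcTGATTAATaattatttttc
The TEAD letters lay 8 bp from the summit in HOXC region 10 (fold 3.84) and 27 bp in HOXA region 2 (fold 3.62), both Dox-only, and the former lay 7496 bp from the nearest HOX TSS. In HOXA region 1 and HOXC region 6 they lay just past the end of the peak. HOXA region 6, with a TEAD match, is the shared region that ranked lower in Dox by most. A match describes the letters of the window and is no measurement of binding.

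Most genes that act with or on the HOX clusters were open in both conditions. Of 40 such genes, 32 had a promoter peak in both lists, 2 with Dox alone, 1 with No Dox alone and 5 in neither. In the same order, the shares over all coding genes were 65.3%, 5.85%, 3.92% and 24.9%. As shares of 40, the counts of 2 and 1 do not exceed these. All 8 trithorax and demethylase genes and 11 of 13 Polycomb genes had a promoter peak in both lists. Of the Polycomb genes, RING1, a ubiquitin ligase subunit of PRC1, had a Dox peak alone (fold 4.07), and PCGF2, another PRC1 subunit, a No Dox peak alone (3.39). CDX1, a caudal-type activator of HOX genes, had a Dox peak alone (3.62). Neither list had a promoter peak for CDX2 or CDX4, for the retinoic acid hydroxylase gene CYP26A1, or for the TALE genes PBX2 and MEIS3.

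In 19 homeobox genes other than HOX genes, chosen for a like layout or protein, 12 had a promoter peak in both lists, none with Dox alone, 1 with No Dox alone (DLX5, fold 2.97) and 6 in neither. EVX2, which had none in either list, lies within the HOXD window. All 6 IRX genes had one in both lists. Over all coding genes the shares were 65.3% in both lists, 5.85% with Dox alone, 3.92% with No Dox alone and 24.9% in neither. At such a Dox-alone share few genes of that state are to be found among 19. The difference from the 8 of 39 HOX genes was not tested.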

How the data were processed

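ATAC-seq was performed on 4 samples, 2 No Dox and 2 Dox. For each condition the authors mapped reads to hg38 (BWA), merged the replicates and used MACS2 for peak calling, with an FDR limit of 0.05 (versions not given in the sources used here). Each deposited list gives, per peak, the fold enrichment (a ratio of signal at the summit over background), the −log10 of the q-value and a score of 10 times the latter. The −log10 p-values were not used here. The depth per sample is unknown. Counts per replicate and the differential regions, RNA-seq and ChIP-seq of the study were not analysed here.

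Overlapping (1 bp or more) and adjoining peaks of both lists were merged. Promoter states used TSSs of all transcripts of GENCODE release 44. Base composition and motifs were read from hg38, and microRNA sequences from RefSeq. The members and lists were chosen with earlier results of these data known. Named were all HOX genes by state, those with a peak of 1 condition alone, the 2 highest promoter peaks per cluster and list, condition-only regions at or above the list median or highest in a cluster, lncRNAs of 1 condition alone with HOTAIR, HOTTIP and HAGLR, and regulator genes with a peak of 1 condition alone or neither. Values of some items within this rule are not given here. Shares have exact Clopper-Pearson intervals of 95%, and no test across conditions was possible. The steps were tested on simulated data. Alternatives were q-value limits, list length, overlap, merging, flanks, TSS choice, promoter and motif windows. Added after seeing the data were GC content, distance to a coding TSS and leaving out each cluster. Computations ran in Python 3.11.15 (scipy 1.17.1, numpy 2.4.6, pandas 2.3.3), and plots used matplotlib 3.10.9.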

Additional observations from a re-analysis of the deposited data

How the results depend on the processing

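No paired analysis was possible because the authors pooled the replicates of each condition before peak calling, and for the same reason no replicate could be left out. Of the recomputed values of the main counts and shares, 75 stayed within 1.5 times the reported count or within its interval and 21 moved, and of the other values 32 stayed and 7 moved. Some settings could hardly move a value. Merging within 200 bp, a HOXB window without HOXB13 and counting every line each gave the same 20, 8 and 14 regions. The number that stayed is therefore no measure of robustness by itself. At a q-value of 1e-05 the HOX windows held 6 regions of Dox alone, 2 of No Dox alone and 8 shared ones. Their Dox-only share was 75% (34.9 to 96.8%), an interval that took in the genome share of 41.2% at this limit. Here 5 HOX genes had a promoter peak in both lists, 4 with Dox alone (1 of them Dox-alone at the deposited threshold) and 0 with No Dox alone, as fewer peaks remained. HOXC6 also lost its No-Dox-alone state (0 genes) with lists of equal length, a promoter window of 3 kb or the canonical transcript only, and the last left 4 genes with a peak in both lists. With a window of 500 bp or the summit alone, the No-Dox-alone gene was HOXC4. Strong regions only gave 3 Dox-only and 3 No-Dox-only regions (50%). Among the alternatives chosen after seeing the data, regions with a GC content of 55% and above had 2 No-Dox-only and a Dox-only share of 88.2%, those within 1 kb of a coding TSS 11 Dox-only, 2 No-Dox-only and 9 shared, the windows without HOXA 3 No-Dox-only and 7 shared, and those without HOXC 13 Dox-only, where counts are lower because the sets are smaller and the cause of the higher share was not tested. Over all settings the Dox-only share ran from 50 to 88.2% in the HOX windows and from 32.5 to 59.3% over the genome.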
